A study of Homo sapiens with 12 samples.

Results

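In the human prostate cancer cell line 22Rv1, 249 abundant features lost at least 50% of their level under the drug zotatifin in normoxia while hypoxia by itself left them within 2-fold. The data are a table of 60230 features, 1 per line, which the files do not pair with gene names, so each feature is called a line here and no gene is named. Levels are in CPM, the value divided by the column total and scaled to counts per M (the SI prefix mega). The members were chosen by measured levels: a line was taken when its mean over all 12 libraries was at least 16 CPM, its mean in normoxia with zotatifin was at most 0.5 of that in normoxia with vehicle, and its mean in hypoxia with vehicle was above 0.5 and below 2 times that in normoxia with vehicle. Of the 60230 lines, 8760 reached 16 CPM, 8534 of those lay inside the hypoxia window, and 249 of those were members.

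22Rv1 is an established line that expresses the androgen receptor and shortened forms of it. The cells were kept either in normoxia or at 1% oxygen, and the drug was given at 10 nM for 24 hours, starting 24 hours after seeding. There were 4 groups of 3 libraries: normoxia with vehicle, normoxia with zotatifin, hypoxia with vehicle and hypoxia with zotatifin. The labels' titles name the untreated cells vehicle and their treatment tag says none. All cells were of 1 line, and the replicates are called biological in the titles with nothing more said of separate cultures, so p-values weigh a change only against differences among these libraries, part of which may be technical. Because the lines carry no names, markers of the cell line could not be looked up, and no sequence can be tied to a member.

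Zotatifin is a small molecule that clamps the RNA helicase eIF4A onto purine-rich RNA. eIF4A is part of the complex that loads ribosomes onto capped messages, and it unwinds structured leaders so that the start codon can be found. RNA sequencing reads the amount of each RNA and not its translation. Low oxygen stabilises the HIF transcription factors, which switch many genes on, and it also lowers cap-dependent translation. In bulk RNA, a lower level in each cell and fewer cells with that RNA cannot be told apart.

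The libraries held 10.4 to 16.5 M estimated counts. The 3 libraries of hypoxia with vehicle averaged 11.2 ± 0.91 M and those of hypoxia with zotatifin 13.5 ± 2.70 M (SD, n = 3). Those of normoxia averaged 16.1 ± 0.43 M with vehicle and 15.3 ± 1.05 M with zotatifin. All 249 members passed the filter on low counts, and the lowest value of any member in any library was 51 counts, so none of the changes below rests on a handful of reads. No library is left out of the values below.

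In hypoxia, where the rule did not look at the drug, nearly all members fell with zotatifin. Of the 249 members, 247 were lower at an adjusted p under 0.05 (edgeR quasi-likelihood test, two-sided, Benjamini-Hochberg over the 17993 lines tested), none was higher, and 2 did not pass. In the same comparison, 27% of all lines tested were called lower and 27.7% higher. Among the other 8285 lines of at least 16 CPM inside the hypoxia window, 34.6% were called lower and 38.6% higher. The largest adjusted p among the 247 members was 0.00652. The groups compared, hypoxia with zotatifin against hypoxia with vehicle, share no library with the normoxia drug contrast. The p-values also draw on the normoxia libraries, because the spread was estimated over all 12. With the 6 hypoxia libraries only, 248 members were called lower. The hypoxia vehicle libraries do enter the rule through the 2-fold window, and the hypoxia zotatifin libraries enter it only through the mean over 12 columns.

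The members kept a median of 43.6% of their hypoxia vehicle level, with the central range (25th to 75th percentile) from 35.1% to 53.7%. The median fitted log2 fold change was -1.20 over the members and -0.01 over all lines tested. At least 2-fold lower means were found for 164 members, or 65.9%, against 6.65% of all lines tested and 2.08% of the other lines inside the window. At least 4-fold lower means were found for 17 members, against 0.839% of all lines tested. In 248 of the 249 members the 3 zotatifin libraries all lay below the 3 hypoxia vehicle libraries, as in 30.4% of all lines tested. The distribution of fitted changes places the members to the left of the bulk of lines.

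**Figure D1:**
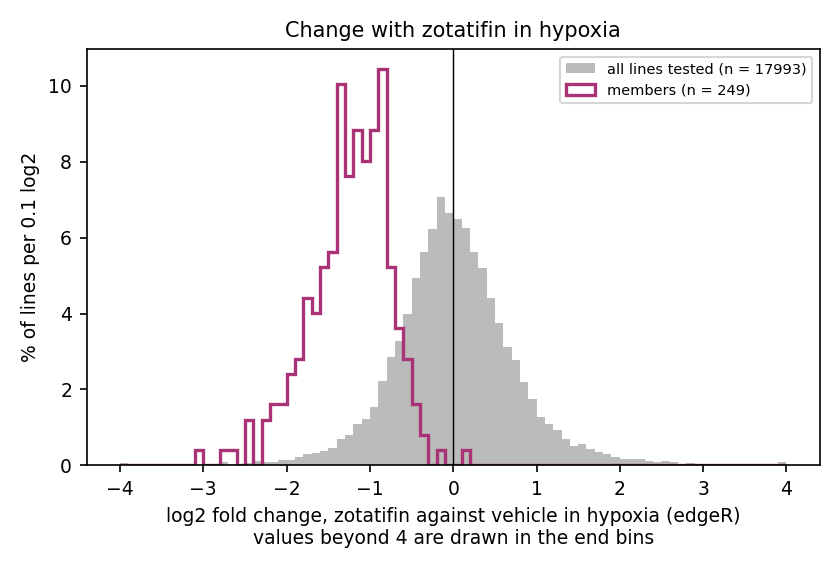
Histogram of the log2 fold change with zotatifin in hypoxia, in bins of 0.1, as a percentage of the 17993 lines tested (grey, filled) and of the 249 members (purple outline). The grey lines centre near 0, the members have a median of -1.20, and a single member lies above 0.

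Most of the abundant lines with the steepest falls in hypoxia were members, and fewer of those with moderate falls. Among all 8760 lines of at least 16 CPM, 394 had a mean at least 2-fold lower with zotatifin in hypoxia, and 164 of these were members. That overlap is 65.9% of the members and 41.6% of the 394. At 4-fold, 21 abundant lines passed and 17 were members, which is 6.83% of the members and 81.0% of the 21. Of the 4 that were not members, 1 lay inside the hypoxia window and 3 outside it.

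The normoxia fall chose the members, so it is given as a description only. They kept a median of 42.7% of the normoxia vehicle level, from 19.9% to 49.96%. The 3 zotatifin libraries lay below the 3 vehicle libraries in normoxia for all 249 members, as in 27.1% of all lines tested, and nothing is read from that count. Beside the threshold, the 3 members nearest to it kept 49.9%, 49.9% and 49.96%, and the 3 lines just outside kept 50.1% each. In hypoxia those 3 members kept 37.0%, 63.8% and 52.5%, and the 3 outside kept 49.0%, 71.02% and 64.6%. The lines on both sides of the threshold therefore had overlapping levels in hypoxia. At the abundance limit, the least abundant member had a mean of 16.1 CPM and kept 43.2% in hypoxia, while the nearest line below had 15.7 CPM and kept 43.7%.

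**Figure D2:**
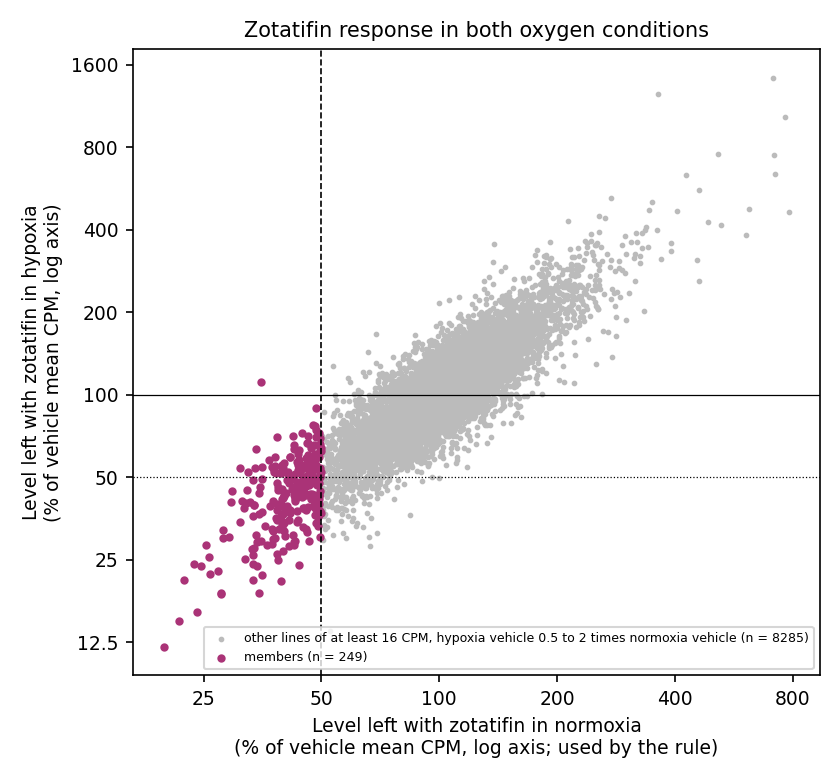
Level left with zotatifin, as a percentage of the vehicle mean, in normoxia (horizontal, log axis) and hypoxia (vertical, log axis) for the 249 members (purple) and the 8285 other lines of at least 16 CPM inside the hypoxia window (grey). The dashed line marks the 50% limit of the rule, the dotted line 50% and the solid line 100% in hypoxia; 164 members lie on or below the dotted line and 1 lies above 100%.

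Members that fell further in normoxia also kept less in hypoxia. The 17 members with under 30% left in normoxia kept a median of 23.7% in hypoxia, from 12.04% to 44.5%. The 78 members with 30% to 40% left in normoxia kept a median of 39.2%, and the 154 with 40% to 50% left kept 47.9%. All 17 of the first class were at least 2-fold lower in hypoxia, against 60 of 78 and 87 of 154 in the other classes. Across the 249 members, Pearson's r between the log2 ratios in normoxia and hypoxia was 0.589 and Spearman's rho 0.467. Across the other 8285 lines inside the window r was 0.850. Both are descriptions across lines and not across samples. The 2 ratios come from different libraries, and the rule cuts off the members' range at 0.5.

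The deepest fall in hypoxia was that of line 12175, a scarce member. Its CPM values were 37.2, 36.05 and 37.99 in hypoxia with vehicle and 3.57, 4.92 and 4.91 in hypoxia with zotatifin. In normoxia they were 29.6, 25.1 and 27.4 with vehicle and 6.18, 5.45 and 4.67 with zotatifin. All 6 zotatifin libraries were far below all 6 vehicle libraries. In hypoxia 12.04% of the vehicle level was left, which edgeR fitted as -3.06 on the log2 scale (SE 0.13, adjusted p = 2.38e-19). This line also had the deepest fall of all members in normoxia, where 19.9% was left.

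Line 9882 ranked the second in both oxygen conditions and was far more abundant. It stood at 1500, 1378 and 1297 CPM in hypoxia with vehicle and at 213, 209.5 and 204 CPM in hypoxia with zotatifin. In normoxia it stood at 1000, 1003 and 908 CPM with vehicle and at 214, 199 and 216 CPM with zotatifin. With vehicle it was higher in hypoxia than in normoxia, at 143% of the normoxia mean, while with zotatifin the values of both oxygen conditions overlapped. Its fitted change with the drug in hypoxia was -2.74 log2 (SE 0.05, adjusted p = 8.61e-27 by edgeR).

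The third and the fourth deepest falls belonged to members that were lower in hypoxia already with vehicle. The third went from 116, 101 and 105 CPM to 16.1, 19.1 and 16.7 CPM with zotatifin in hypoxia, a fitted -2.63 log2 (SE 0.07, adjusted p = 1.09e-24 by edgeR). The fourth went from 187.7 ± 10.6 to 35.3 ± 2.34 CPM (mean ± SD of 3 libraries), fitted as -2.42 log2. Neither had overlapping groups. The third kept 16.1% in hypoxia and 24.1% in normoxia, and the fourth kept 18.8% and 27.7%.

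The fifth deepest fall was that of the most abundant member, which alone held 12.7% of the members' summed CPM in hypoxia with vehicle. It read 4492, 4389 and 4331 CPM in hypoxia with vehicle and 810, 841 and 843 CPM in hypoxia with zotatifin. In normoxia it read 2734, 2760 and 2583 CPM with vehicle and 735, 750 and 757 CPM with zotatifin. The vehicle mean exceeded the zotatifin mean by 1945 CPM in normoxia and by 3573 CPM in hypoxia, while the means of the zotatifin groups were 83.9 CPM apart. The fitted change in hypoxia was -2.41 log2 (SE 0.04, adjusted p = 4.11e-29 by edgeR). The members ranked 6 to 10 kept 18.9% to 22.1% in hypoxia and 22.3% to 39.4% in normoxia, at mean levels from 21.7 to 219 CPM.

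The third and the fourth deepest falls in normoxia, which kept 22.3% and 23.6% there, were scarce members that ranked 9 and 15 in hypoxia. The first of them went from 35.9, 38.2 and 36.6 CPM with vehicle to 8.99, 7.96 and 6.45 CPM with zotatifin in hypoxia, a fitted -2.22 log2 (SE 0.13, adjusted p = 6.98e-13 by edgeR). The other went from 31.5, 28.5 and 33.8 CPM to 6.73, 6.73 and 9.14 CPM, a fitted -2.08 log2 (SE 0.12, adjusted p = 1.39e-15 by edgeR). The hypoxia groups did not overlap in either line. The fifth deepest fall in normoxia was the member with the third deepest fall in hypoxia, given above.

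**Figure D3:**
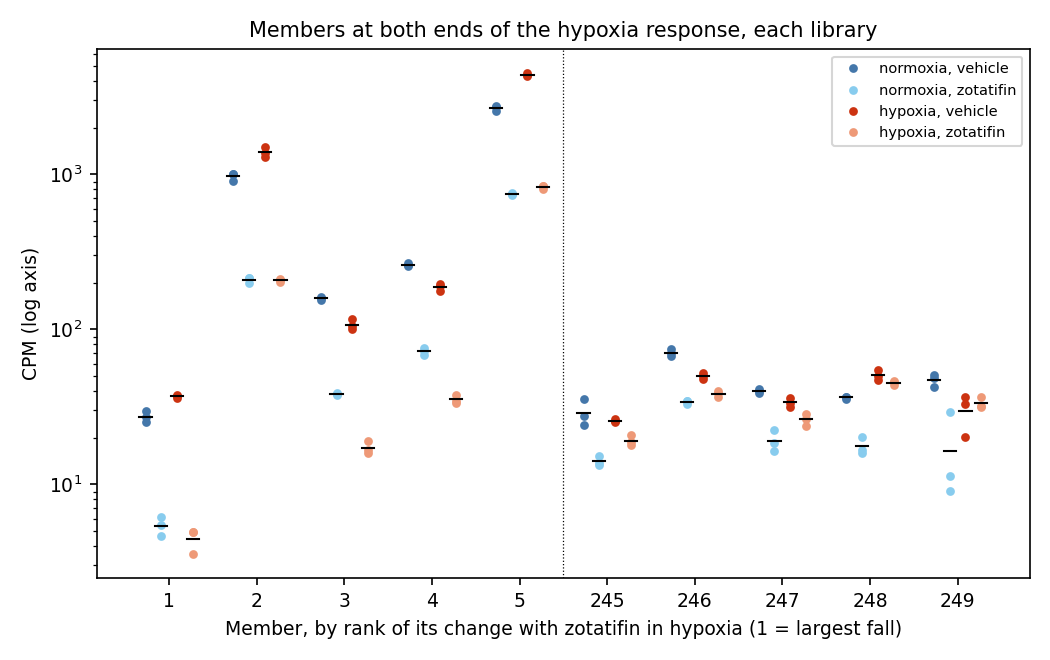
CPM (log axis) in each of the 12 libraries for the 5 members with the largest fall (ranks 1 to 5) and the 5 with the smallest (ranks 245 to 249) with zotatifin in hypoxia; points are libraries, black bars are group means, colours are the 4 groups. In ranks 1 to 5 both zotatifin groups sit far below both vehicle groups, while in rank 249 the hypoxia groups overlap.

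A member in the middle of the ranking, the one at the median, shows the usual size of the response. It stood at 146, 135 and 139 CPM in hypoxia with vehicle and at 62.1, 61.6 and 60.04 CPM with zotatifin. In normoxia it stood at 154, 159 and 149.9 CPM with vehicle and at 72.4, 74.9 and 72.2 CPM with zotatifin. The groups of each oxygen condition were well apart. In hypoxia it fell by 1.20 on the log2 scale (SE 0.05, adjusted p = 1.98e-19 by edgeR).

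At the other end, 2 members did not pass the test in hypoxia. Line 10435 was the only member with a higher mean, at 32.9, 36.6 and 20.2 CPM with vehicle and 32.2, 36.4 and 31.6 CPM with zotatifin. These hypoxia groups overlapped, and the fitted difference was 0.16 log2 (SE 0.38, adjusted p = 0.766 by edgeR). Without hypoxia vehicle replicate 3, the low library, it was -0.041. In normoxia the line read 48.4, 50.5 and 42.4 CPM with vehicle and 9.08, 29.2 and 11.3 CPM with zotatifin, so the uneven group was zotatifin in normoxia and vehicle in hypoxia. Its values were fractional in all 12 libraries, as were those of 19 members in all. Such values can arise when reads are divided between similar features.

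The other member that did not pass had a small and even difference. It read 54.8, 49.9 and 46.9 CPM in hypoxia with vehicle and 46.6, 45.5 and 43.9 CPM with zotatifin, a fitted difference of -0.16 log2 (SE 0.07, adjusted p = 0.0656 by edgeR). Its libraries did not overlap, but the lowest vehicle and the highest zotatifin library were close. In normoxia it read 36.7, 35.7 and 36.8 CPM with vehicle and 15.9, 16.7 and 20.3 CPM with zotatifin. With zotatifin it was at 257% of its normoxia mean in hypoxia, the highest such value of all members.

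The next smallest changes were falls of modest size that passed the test. The members ranked 245 to 247 kept 74.2%, 77.2% and 77.7% of the hypoxia vehicle level, with log2 fold changes of -0.44, -0.38 and -0.37 and edgeR adjusted p-values of 0.00652, 1.25e-05 and 0.000617. Those ranked 240 to 244 kept 70.1% to 72.4%. In normoxia these 8 kept 42.3% to 49.4%. The rule capped the normoxia share of every member, and these 8 were picked for a large share left in hypoxia. Their lower share in normoxia was therefore fixed by the choice, and nothing is read from it.

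The spread between replicates was small for most members. The median coefficient of variation over the 249 members was 5.26% in normoxia with vehicle, 5.89% in normoxia with zotatifin, 5.31% in hypoxia with vehicle and 6.25% in hypoxia with zotatifin. One member, singled out after its values were seen, stood far above this. It read 31.8, 54.01 and 101 CPM in hypoxia with vehicle and 10.2, 12.9 and 21.3 CPM with zotatifin, so each group spanned more than 2-fold. Its fitted fall of -2.12 log2 had an SE of 0.48 (adjusted p = 0.00467 by edgeR), against a median SE of 0.08 over the members, and its values too were fractional in all 12 libraries.

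By class of mean level, the most abundant members kept the smallest median share in hypoxia. The 14 members with a mean of 256 CPM or more kept a median of 35.1% in hypoxia, and at most 50.2%. The 60 members from 64 to 256 CPM kept a median of 42.9%, and the 175 members from 16 to 64 CPM kept 45.3%. At least 2-fold lower means were found for 13 of 14, 43 of 60 and 108 of 175. Across members, Spearman's rho between mean level and the log2 ratio in hypoxia was -0.159. Across the other lines inside the window it was -0.0051, both as descriptions without a test. The smallest share of all, 12.04%, was that of line 12175, with a mean of 18.6 CPM. The mean level includes the libraries of the ratio, and the limit of 16 CPM acts on that mean, so the 2 are not independent. The normoxia share, used by the rule, had 25th percentiles of 34.9%, 36.9% and 38.4% from the highest class to the lowest.

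The 5 most abundant members each averaged 1294 CPM or more over the 12 libraries. The second in level went from 2675, 2512 and 2457 CPM to 835, 811 and 788 CPM with zotatifin in hypoxia, and the third from 1915, 1861 and 1835 CPM to 489, 499.7 and 479.5 CPM. The fourth went from 1803, 1602 and 1664 CPM to 548, 522 and 496 CPM, and the fifth from 2217, 2215 and 2385 CPM to 588.5, 618 and 622 CPM. None of these groups overlapped. They kept 31.8%, 26.2%, 30.9% and 26.8% of the hypoxia vehicle level, against 37.6%, 38.6%, 34.0% and 39.9% in normoxia.

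Summed over members, the share of all counts was lower with zotatifin in both oxygen conditions. The members held 3.64%, 3.68% and 3.51% of the counts in normoxia with vehicle and 3.59%, 3.44% and 3.40% in hypoxia with vehicle. With zotatifin they held 1.37%, 1.41% and 1.43% in normoxia and 1.21%, 1.22% and 1.20% in hypoxia. The vehicle and zotatifin libraries did not overlap in either oxygen condition, and the 3 hypoxia zotatifin libraries lay below the 3 normoxia zotatifin libraries. Without the most abundant member, the summed level was 30350 ± 924 CPM in hypoxia with vehicle and 11298 ± 106 CPM with zotatifin (SD, n = 3). The normoxia and hypoxia vehicle values are fixed in part by the rule, and no test was made on the sums.

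**Figure D4:**
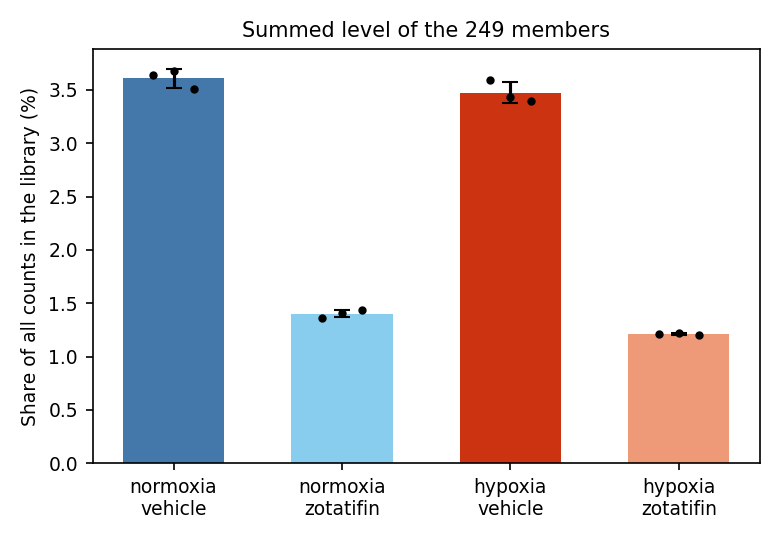
Share of all counts in each library held by the 249 members (vertical axis, %), by group; bars are means, error bars SD over 3 libraries, points the libraries. The vehicle groups average 3.61% and 3.48% and the zotatifin groups 1.40% and 1.21%.

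With vehicle, hypoxia shifted most members downward inside the allowed window. The mean in hypoxia was below that in normoxia for 203 members and above it for 46, with a median of 81.01% of the normoxia level. The other lines inside the window had a median of 97.5%. The normoxia vehicle libraries are the base of both this ratio and the normoxia drug ratio, and the rule used both, so this is a description. The member nearest to the lower edge stood at 50.9% of its normoxia level and kept 69.9% with zotatifin in hypoxia, and the nearest line outside stood at 49.8% and kept 37.8%. The member nearest to the upper edge stood at 197%.

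Members above their normoxia level in hypoxia with vehicle kept a smaller median share with the drug than those below it. The 46 members above their normoxia vehicle level kept a median of 37.9% in hypoxia, the 146 members at 70% to 100% of it kept 45.8%, and the 57 members at 50% to 70% kept 44.02%. The classes did not form a steady order, as the 57 members kept slightly less than the 146. The hypoxia vehicle libraries enter both quantities here, so they are not independent of each other. The member at the upper edge is an example: it read 46.3, 41.7 and 41.2 CPM in hypoxia with vehicle against 21.4, 22.9 and 21.2 CPM in normoxia with vehicle. With zotatifin it read 10.6, 10.2 and 10.1 CPM in hypoxia and 9.34, 8.69 and 10.7 CPM in normoxia, so these overlapped.

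Across the 4 group means, 160 members had the order normoxia vehicle, hypoxia vehicle, normoxia zotatifin, hypoxia zotatifin from high to low. Another 42 had the hypoxia zotatifin mean above the normoxia zotatifin mean with the vehicle groups in that same order. In 45 members the hypoxia vehicle mean was the highest and both zotatifin means the lowest. Both vehicle means exceeded both zotatifin means in 247 members, and all 6 vehicle libraries exceeded all 6 zotatifin libraries in 244, as in 13.7% of all lines tested. These orders include the contrast of the rule, so nothing is read from their counts.

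Set side by side, the fitted change in hypoxia was within 0.5 log2 of that in normoxia for 191 members. It was lower by more than 0.5 in 20 members and higher by more than 0.5 in 38. The median difference, hypoxia minus normoxia, was 0.11, and it ran from -0.88 to 1.69. The difference was not tested over members, because they were chosen for a low normoxia ratio. The member with the value of -0.88 ranked 7 in hypoxia: it went from 82.8, 85.6 and 75.9 CPM to 16.3, 17.3 and 17.4 CPM in hypoxia and from 85.2, 100.2 and 93.8 CPM to 31.7, 39.1 and 39.1 CPM in normoxia. Line 10435 had the value of 1.69.

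Lines lowered by zotatifin in normoxia but also lowered by hypoxia, which the window keeps out, are the closest comparison. There were 51 such lines, at no more than 0.5 of the normoxia vehicle level in hypoxia. With zotatifin in hypoxia 49 of them were called lower and none higher. Their median log2 fold change there was -1.50 against -1.20 for the members. The lists differed in normoxia too, with a median log2 fold change with zotatifin of -1.50 against -1.27 for the members. Their median level in normoxia with vehicle was 254 CPM against 57.5 CPM for the members. The difference between these lists was not tested. The opposite list, 243 lines inside the window with a normoxia ratio of at least 2, had 239 called higher in hypoxia and none lower, with a median log2 fold change of 1.31.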

How the data were processed

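RNA of 22Rv1 cells was sequenced in 12 libraries. The deposited values are estimated counts per line, not scaled to a common total. Among non-zero values 33.2% were fractional (tolerance 0.0005). Per the submitters' processing notes, Salmon, DESeq and DESeq2 were used with hg38, in roles the notes do not give; no annotation is named. Estimating counts divides reads between similar transcripts, so lines of near-identical copies are uncertain.

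Members and described lines were chosen with earlier results of these data known. CPM used unrounded values and column totals. For the test, values were rounded, lines kept by edgeR's filterByExpr (minimum count 10, minimum total 15) and scaled by TMM (factors 0.932 to 1.05). edgeR 4.0.16 in R 4.3.3 (quasi-likelihood, robust, 1 mean per group) was run on simulated data first. The simulation gave all lines the same spread and changed few of them, so it does not show the error rate in these data. The SE given with an edgeR fold change is its absolute value divided by the square root of the F statistic of the test. Alternatives used DESeq2 1.42.0 and limma 3.58.1. Lines described singly were the 5 largest and the 5 smallest changes in hypoxia, the 5 highest in level, the 5 deepest falls in normoxia and the edges of the hypoxia window, plus lines named as exceptions; line numbers count the table's data lines.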

Additional observations from a re-analysis of the deposited data

How the results depend on the processing

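The number of members called lower in hypoxia was 247 under relative log expression scaling, column totals, DESeq2, limma-voom and no filter, 248 under upper quartile scaling and with the 6 hypoxia libraries only, and 247 to 248 with each library left out. Against a 1.5-fold change instead of none, 218 passed. Of the 249 members, 247 were called lower under every one of these settings except the 1.5-fold test. No pairing by replicate number was seen in the hypoxia libraries (same-number correlations of deviations from group means of -0.03, -0.03 and 0.04). The labels do not say whether equal numbers shared a culture, and these correlations cannot exclude it. The replicate block gave 247 members called lower and a median of -1.20. The median log2 fold change of -1.20 was -1.21 with relative log expression scaling, -1.23 with upper quartile scaling, -1.21 with DESeq2, -1.18 without a filter, and -1.21 to -1.19 with a library left out. Without the 20 most abundant lines, an alternative chosen after seeing the data, it was -1.26 and 248 members were called lower. The cause of these shifts was not tested. With a library left out, line 10435 ranged from -0.041, without hypoxia vehicle replicate 3, to 0.33, without hypoxia vehicle replicate 2, around its value of 0.16. The other member that did not pass in hypoxia passed under 6 of the settings. The count of members at least 2-fold lower was 162 to 169 with a hypoxia library left out and 164 with TMM-scaled CPM. The list itself depended on its limits: it held 95 lines at a ratio of at most 0.4, 571 at 0.6, 332 at 8 CPM, 146 at 32 CPM and 278 with TMM-scaled CPM, and 234 to 261 with a library left out, of which 224 to 249 were among the 249. The lowest value of a member was 51 counts, and how much of the spread between replicates is counting error was not tested.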

Other observations

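Inside the hypoxia window, 172 lines that were not members were at least 2-fold lower with zotatifin in hypoxia. All 172 had a lower mean with zotatifin in normoxia too, with a median of 58.5% of the vehicle level left and a highest value of 99.9%. The 8285 lines inside the window that were not members had a median of 101.8% left in normoxia. Across those 8285 lines r between the normoxia and hypoxia log2 ratios was 0.850, so a shared direction is not particular to the 172. One of the 172 kept 13.8% in hypoxia, less than all members but line 12175.

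Fractional values, which can arise when reads are divided between similar features, made up 46.1% of the members' values and 53.5% of those of the other lines inside the window. In 28 members all 12 values were whole to within 0.0005, and in 19 members none was.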
